A study of Mus musculus with 8 samples.

Results

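The anaphase-promoting complex (APC/C) and the cullin-RING ligases are E3 ubiquitin ligases, the enzymes that choose which proteins are marked with ubiquitin. From the genes represented on the array, 34 were selected by name: 12 core subunits of the APC/C, its activators Cdc20 and Fzr1 and its inhibitor Fbxo5, 7 cullins, 2 RING subunits, 8 adaptors and substrate receptors, the exchange factor Cand1 and the HECT ligase Huwe1. The choice goes by gene names and complexes, not by a measured value, but was made with earlier results of these data known. All 34 were found among the 18193 genes with a probe set annotated to that gene alone, Skp1 under its older symbol Skp1a. They had 91 of the 45037 probe sets, and each gene was represented by the probe set with the highest mean log2 value over the 8 arrays.

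RNA of purified germ cells from mouse testis was hybridised to Affymetrix oligonucleotide arrays of the mouse genome, with 2 arrays in each of 4 groups. The groups were Hr6b knockout (Hr6b-/-) round spermatids, wild type (Hr6b+/+) round spermatids, Hr6b knockout late spermatocytes and wild type late spermatocytes. Hr6b, now named Ube2b, encodes the ubiquitin-conjugating enzyme HR6B, which is absent from every tissue of the knockout and is required for male fertility. The comparisons ask how its loss alters gene expression before and after the meiotic divisions. All mice were males of 4 to 5 weeks on an FVB background. The knockout males had knockout mothers, while the wild type males came from wild type intercrosses. The cells were fractions enriched by StaPut sedimentation followed by Percoll gradients, not pure populations. The sources used here do not give the number of mice behind an array, and the p-values reflect no more than the spread among these arrays, which may be technical.

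Ubiquitin ligases of this kind drive the cell cycle by ordering the destruction of its regulators. The APC/C, bound to CDC20 or to CDH1 (the product of Fzr1), removes securin and cyclin B so that chromosomes separate in mitosis and in both meiotic divisions. In a cullin-RING ligase, a cullin scaffold joins a RING protein, which recruits the ubiquitin-conjugating enzyme, to an adaptor and an exchangeable substrate receptor. Attachment of NEDD8 to the cullin activates the ligase, and CAND1 exchanges the receptors of cullins without NEDD8. In mouse testis, CUL4A is needed for male meiosis, and KLHL10, a receptor for CUL3, is needed for spermatid development.

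Signal below is the RMA value (robust multi-array average) brought back from the log2 to the linear scale, and it is compared between groups for 1 probe set, never between genes. A log2 fold change is Hr6b knockout minus wild type, or spermatids minus spermatocytes. Probe sets are called higher or lower at an adjusted p under 0.05 from limma, adjusted over all 45037 probe sets. Between 33.2% and 35.4% of probe sets had a signal of 100 or more on an array, and the 2 arrays of a group correlated across probe sets, which are no replicates of each other, with r of 0.995 to 0.997. Ube2b itself had signals of 951 and 1061 in knockout spermatids against 4600 and 4612 in wild type spermatids, and of 833 and 824 in knockout spermatocytes against 2855 and 3349 in wild type spermatocytes. All 15 markers of round and later spermatids were called higher in spermatids than in spermatocytes in both genotypes. Of 15 meiotic markers, 8 were called lower in wild type spermatids than in wild type spermatocytes and 2 were called higher. Of 11 Sertoli cell markers 6 were called lower and 0 higher in that comparison. Their summed signal was 681 and 768 in wild type spermatids against 4189 and 5554 in wild type spermatocytes. Of 4 peritubular and 5 macrophage markers, 3 and 2 were called higher and 0 lower. Between the knockout stages 6 Sertoli markers were lower and 3 higher, and of the meiotic markers 8 were lower and 4 higher. There all 4 peritubular markers and 4 of the 5 macrophage markers were called higher. Of 8 spermatogonial markers 4 were higher and 1 lower in the knockout, against 2 higher and 3 lower in wild type. The part of these cells in the stage differences was not tested. In such cell fractions, fewer cells of a type and less RNA per cell cannot be told apart. Of the 34 members, 32 had a signal of 100 or more on at least 4 arrays, and Cul7 and Rbx1 did not.

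**Figure D1:**
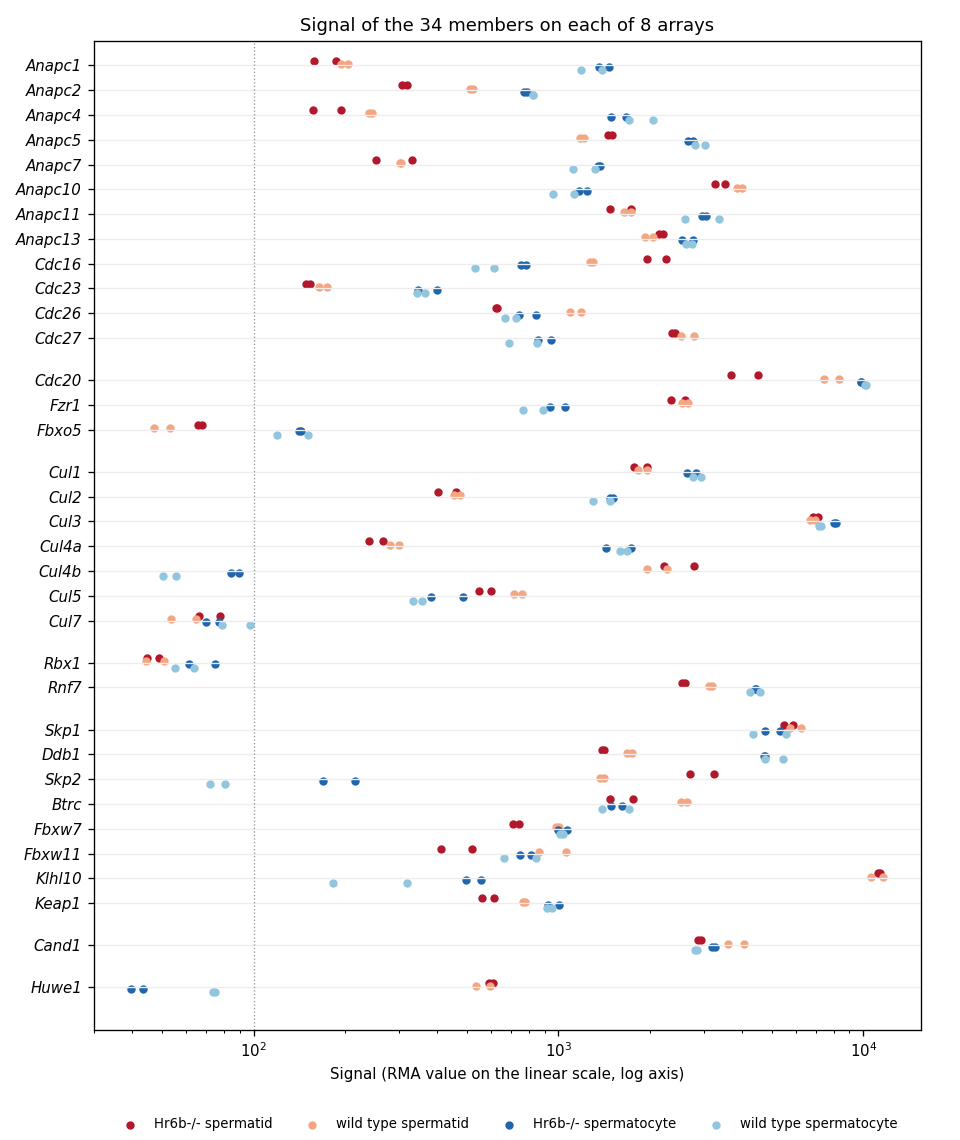
Signal of the 34 members, ordered by role, on a log axis, with 1 point for each of the 8 arrays (2 per group); the dotted line marks a signal of 100. Points of Klhl10, Cul4b, Skp2 and Huwe1 in spermatids lie far to the right of those in spermatocytes in both genotypes, and those of Anapc1, Anapc4, Anapc7 and Cul4a lie far to the left.

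Between the stages, most of the members changed, and the ligase families did so in both directions. In wild type cells, 12 of the 34 members were called higher in spermatids than in spermatocytes and 16 were called lower. Over all genes, 33.7% were called higher and 29.4% lower, and among genes at a signal of 100 or more on at least 4 arrays 83.1% were called in either direction, a background in which most genes changed. The members' median log2 fold change was -0.30, against 0.15 for all genes and -0.17 for genes at that signal. The balance between the directions depended on the scaling of the arrays and on the probe sets used. After cyclic loess normalization 15 members were called higher and 13 lower, and with the medians of expressed probe sets set equal 15 were higher and 11 lower. The second scaling moved the median of all probe sets by itself, to 0.41 in place of 0.096. With the mean of all probe sets of a gene the balance moved the other way, to 8 members higher and 18 lower.

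The APC/C core was divided. Of its 12 subunits, 8 were called lower in wild type spermatids than in wild type spermatocytes and 4 were called higher. Anapc4, which encodes a scaffold subunit, had signals of 239 and 244 in wild type spermatids and of 1709 and 2046 in wild type spermatocytes. The groups did not overlap, and the signal was 7.73-fold lower in spermatids (log2 fold change -2.95, standard error 0.14, adjusted p = 3.76e-08 from limma). Anapc1, the large scaffold subunit, had 203 and 194 in wild type spermatids against 1182 and 1387 in wild type spermatocytes, a 6.45-fold lower signal. Anapc7, one of the subunits built of tetratricopeptide repeats, had 303 and 304 in wild type spermatids against 1313 and 1115 in wild type spermatocytes, which was 3.99-fold lower. On all 3 the spermatid arrays lay below every spermatocyte array. Anapc5, a further scaffold subunit, and Cdc23, another tetratricopeptide subunit, fell by 1.28 and 1.07 on the log2 scale. The catalytic core, made of the RING subunit gene Anapc11 and the cullin-like Anapc2, fell by 0.81 and 0.67, and the small subunit gene Anapc13 by 0.44. Under cyclic loess the call of Anapc2 was lost, and under both scalings that of Anapc13.

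The 4 core subunits that were higher in wild type spermatids than in wild type spermatocytes were Anapc10, Cdc27, Cdc16 and Cdc26. Anapc10, which helps the activators to bind substrates, averaged 3928 ± 89.3 in wild type spermatids and 1039 ± 116 in wild type spermatocytes (SD, n = 2 each), and it was called at 1.92 on the log2 scale, with a standard error of 0.12 and an adjusted p of 2.65e-07 from limma. Cdc27 and Cdc16, which encode tetratricopeptide subunits, had log2 fold changes of 1.79 and 1.16. Cdc26, a small protein that stabilises CDC16, had 0.71, and its call was lost when the mean of all its probe sets was used. In RefSeq (GRCm38.p6), the 300 bases from 250 before to 50 after a start site of Anapc10 held the cAMP response element TGACGTCA, shown because 3 members had this element and Anapc10 had the largest stage difference among them. Capitals mark the element.
Anapc10 (chr8:79711513-79711812, plus strand): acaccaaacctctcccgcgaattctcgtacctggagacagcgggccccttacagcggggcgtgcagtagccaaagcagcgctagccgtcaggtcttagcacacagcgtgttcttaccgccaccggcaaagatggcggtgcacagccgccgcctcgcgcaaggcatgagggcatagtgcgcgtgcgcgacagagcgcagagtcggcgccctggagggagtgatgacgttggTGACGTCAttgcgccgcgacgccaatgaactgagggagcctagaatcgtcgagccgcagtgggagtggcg

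The activators went apart. Fzr1, whose product CDH1 directs the APC/C late in mitosis and in G1, had signals of 2552 and 2661 in wild type spermatids and of 891 and 766 in wild type spermatocytes. It was 3.16-fold higher in spermatids, with no overlap (log2 fold change 1.66, standard error 0.13, adjusted p = 1.14e-06 from limma). Cdc20, the activator of the metaphase to anaphase transition, had 8301 and 7435 in wild type spermatids and 10192 and 10149 in wild type spermatocytes. Its signal was 1.29-fold lower in wild type spermatids, a small difference (adjusted p = 0.0322 from limma) whose call was lost under both other scalings and without any of 5 arrays, both knockout spermatocyte arrays, both wild type spermatocyte arrays and replicate 2 of the wild type spermatids, with log2 fold changes of -0.38 to -0.29. Fbxo5, whose product EMI1 inhibits the APC/C, averaged 50.1 ± 4.29 in wild type spermatids and 135 ± 22.2 in wild type spermatocytes (SD, n = 2 each), a log2 fold change of -1.43.

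The cullins changed gene by gene. The paralogs Cul4a and Cul4b, both scaffolds for the adaptor DDB1, moved in opposite directions. Cul4a had signals of 300 and 281 in wild type spermatids and of 1680 and 1594 in wild type spermatocytes, a 5.64-fold lower level. Cul4b, on the X chromosome, had 2264 and 1948 in wild type spermatids and 55.8 and 50.4 in wild type spermatocytes, a 39.6-fold higher level (log2 fold change 5.31, standard error 0.14, adjusted p = 1.62e-09 from limma). Neither gene's groups overlapped, and both wild type spermatocyte arrays were below 100 for Cul4b. Huwe1, a HECT ligase gene that is also X-linked, had 535 and 594 in wild type spermatids against 73.3 and 74.5 in wild type spermatocytes, 7.63-fold higher. Both rises rest on the brightest probe set, since no other probe set of either gene had a signal of 100 or more in a group. Over 15 alternatives, the mean of a gene's probe sets among them, the lowest log2 fold changes were 1.76 for Cul4b and 0.70 for Huwe1, still called. The X chromosome is silenced in spermatocytes, and whether this had a part in the values of Cul4b and Huwe1 was not tested. Ddb1, the CUL4 adaptor gene, fell by 1.58 on the log2 scale, as did Cul2, the scaffold of the von Hippel-Lindau ligase. Cul1, the scaffold of the SCF ligases, fell by 0.59, and Cul7, with mean signals under 100 in every group, by 0.57. The call of Cul7 was lost without replicate 2 of the wild type spermatids or of the wild type spermatocytes, at -0.43 and -0.42, and with the medians set equal both calls were lost. Cul5, the scaffold for SOCS-box receptors, had a log2 fold change of 1.10. Cul3, the scaffold for BTB-domain receptors, had 6967 and 6674 in wild type spermatids and 7181 and 7278 in wild type spermatocytes and was not called (log2 fold change -0.08, 95% interval -0.32 to 0.15). Of the RING subunits, Rnf7, which serves CUL5, fell by 0.49, a call lost under both other scalings, while its other probe set had -1.49 and the mean of both -0.99, each called. Rbx1, which serves the other cullins, was measured by a dim probe set under 100 (log2 fold change -0.32, adjusted p = 0.082 from limma).

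The adaptors and receptors held the steepest rise. Klhl10, the spermatid receptor of CUL3, had signals of 10585 and 11616 in wild type spermatids and of 319 and 183 in wild type spermatocytes, 45.9-fold higher in spermatids (log2 fold change 5.52, standard error 0.22, adjusted p = 8.82e-09 from limma). Skp2, an F-box gene whose product targets the cell cycle inhibitor p27, had 1407 and 1368 in wild type spermatids against 71.7 and 80.6 in wild type spermatocytes, 18.3-fold higher. In both genes the spermatid arrays lay far above the spermatocyte arrays. Btrc, which encodes the F-box protein beta-TrCP1, had a log2 fold change of 0.75, and Cand1, the exchange factor, 0.44 (0.35 and not called without replicate 1 of the wild type spermatids). Not called were Skp1, which links F-box proteins to CUL1 (0.28), Fbxw11, which encodes beta-TrCP2 (0.35), Fbxw7, a receptor for cyclin E and MYC (-0.04), and Keap1, the CUL3 receptor for NRF2 (-0.27). Skp1, Fbxw11 and Fbxw7 were called higher in wild type spermatids under both other scalings, at 0.47, 0.76 and 0.34 after cyclic loess. The other probe set of Skp1 was called lower, at -0.71 (adjusted p = 0.00312 from limma).

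**Figure D2:**
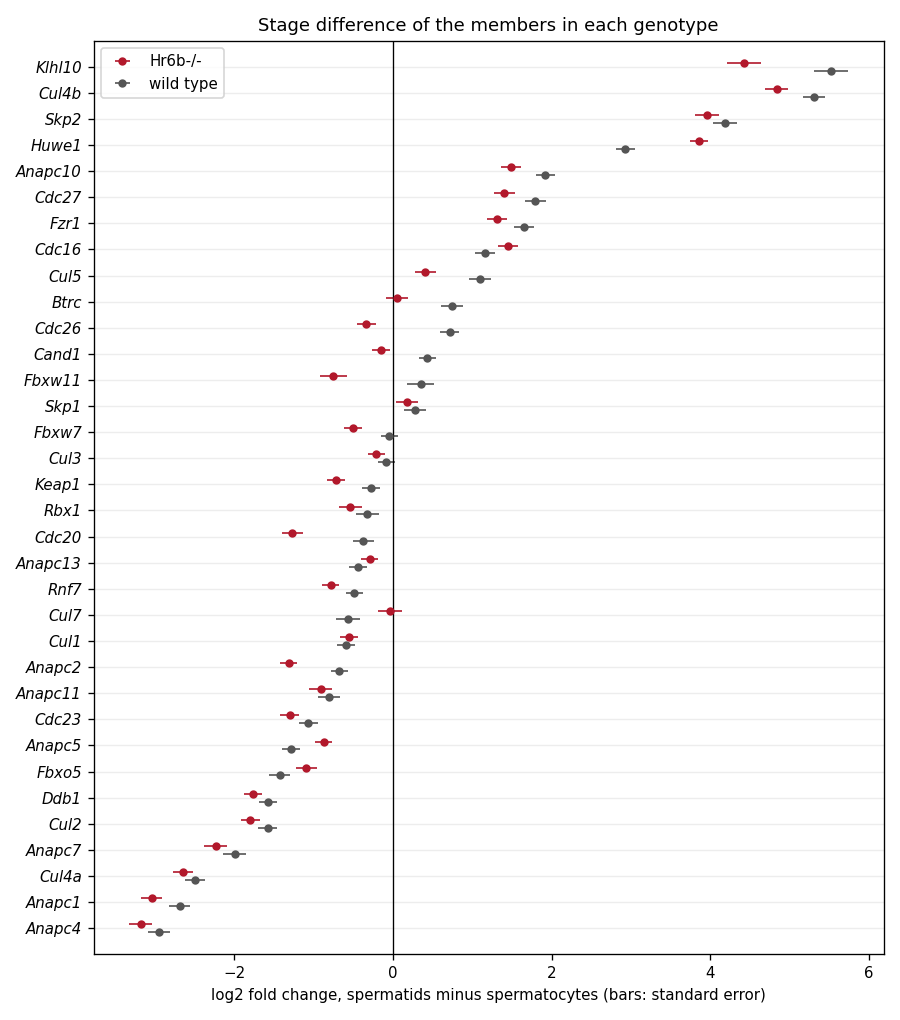
Log2 fold change of each member between spermatids and spermatocytes in Hr6b knockout (red) and wild type (grey), with standard errors, in order of the wild type value. In wild type, values run between 5.52 for Klhl10 and -2.95 for Anapc4, and those of the knockout lie close to them for most members.

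The starts of these genes differ in sequence. Promoter windows of 300 bases were listed in RefSeq for 31 of the 34 members, 38 windows in all. The windows of the members held a median of 24.5 CpG dinucleotides, against 7 in all 32851 windows listed. Klhl10 had 2, Cul4b 14 and Cul4a 43, and these windows are shown because they belong to the member with the steepest rise between the stages and to the paralogs that moved apart. Capitals mark CpG.
Klhl10 (chr11:100441674-100441973, plus strand): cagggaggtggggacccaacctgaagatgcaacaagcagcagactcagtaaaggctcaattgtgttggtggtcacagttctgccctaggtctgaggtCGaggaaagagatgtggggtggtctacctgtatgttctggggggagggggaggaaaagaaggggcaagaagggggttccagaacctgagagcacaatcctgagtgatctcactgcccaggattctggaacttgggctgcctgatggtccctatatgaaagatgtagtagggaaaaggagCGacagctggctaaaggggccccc
Cul4b (chrX:38576147-38576446, minus strand): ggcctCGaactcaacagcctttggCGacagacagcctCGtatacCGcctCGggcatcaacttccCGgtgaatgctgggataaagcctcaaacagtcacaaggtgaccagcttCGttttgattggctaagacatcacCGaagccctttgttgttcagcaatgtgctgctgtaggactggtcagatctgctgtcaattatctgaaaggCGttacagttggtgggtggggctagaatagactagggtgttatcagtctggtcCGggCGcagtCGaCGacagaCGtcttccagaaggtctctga
Cul4a (chr8:13105373-13105672, plus strand): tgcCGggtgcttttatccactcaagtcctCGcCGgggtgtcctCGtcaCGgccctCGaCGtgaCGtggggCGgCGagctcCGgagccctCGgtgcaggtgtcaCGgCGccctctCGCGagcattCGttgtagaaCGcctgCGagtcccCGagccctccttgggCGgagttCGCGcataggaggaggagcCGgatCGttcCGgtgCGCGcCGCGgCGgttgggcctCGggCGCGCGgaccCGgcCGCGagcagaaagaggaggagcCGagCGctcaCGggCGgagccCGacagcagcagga

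Skp2 had 2 listed starts. The window of the upstream start had 0 CpG dinucleotides and that of the downstream start had 23, and the probe sets of Skp2 are compared below. The upstream window held the letters TTTGAA of the cell cycle homology region at 2 places, and the window of Cdc20 held them at 1. The windows are shown because both genes were called between the genotypes, in opposite directions. Capitals mark the letters.
Skp2 (chr15:9155376-9155675, minus strand): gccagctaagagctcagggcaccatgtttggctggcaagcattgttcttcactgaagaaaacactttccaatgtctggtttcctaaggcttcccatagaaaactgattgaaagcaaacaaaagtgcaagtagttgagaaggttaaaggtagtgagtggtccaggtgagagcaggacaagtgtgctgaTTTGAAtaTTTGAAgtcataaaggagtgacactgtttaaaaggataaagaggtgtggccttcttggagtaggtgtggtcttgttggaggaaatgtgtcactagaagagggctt
Cdc20 (chr4:118437294-118437593, minus strand): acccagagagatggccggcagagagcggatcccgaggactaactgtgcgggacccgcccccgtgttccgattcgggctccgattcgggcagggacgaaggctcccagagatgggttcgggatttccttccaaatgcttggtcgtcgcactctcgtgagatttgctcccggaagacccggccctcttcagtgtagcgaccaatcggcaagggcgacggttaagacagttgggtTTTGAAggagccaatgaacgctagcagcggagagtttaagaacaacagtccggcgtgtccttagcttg

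All motifs were searched on both strands. The letters TTTGAA were in 5 of the 38 windows (13.2%), those of Anapc7, Cdc20, Fbxo5, Skp1 and Skp2, and in 17.9% of all windows. The element TGACGTCA was in 4 windows (10.5%), those of Anapc10 (both starts, whose windows overlap), Rnf7 and Skp1, and in 1.79% of all. The MYB core letters AACGG were in 10 windows (26.3%) and in 17.4% of all. These are counts of letters, not of bound sites, and the members with a match did not share a direction between the stages, as Anapc10 was called higher in wild type spermatids, Rnf7 lower and Skp1 was not called. TGACGTCA and AACGG each hold a CpG, and the members' windows had a median of 24.5 CpG dinucleotides against 7 in all windows. The shares of members and of all windows were not compared at like CpG content.

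In knockout cells, 9 members were called higher in spermatids than in spermatocytes and 20 lower, against backgrounds of 41.6% and 31.1% over all genes. Among genes at a signal of 100 or more on at least 4 arrays the background was 85.7% in either direction. After cyclic loess the split was 13 higher and 13 lower, and with the medians set equal 14 and 12. With the mean of all probe sets of a gene it was 7 higher and 24 lower. Klhl10, Cul4b, Skp2, Huwe1, Anapc10, Cdc16, Cdc27, Fzr1 and Cul5 were called higher in both genotypes (Cul5 in the knockout by 0.41, lost without replicate 2 of the knockout spermatids or replicate 2 of the knockout spermatocytes, at 0.34 and 0.24). For Cdc27 and Cul5 other probe sets were called lower, as given below. Cdc26, which was higher in wild type spermatids, had 627 and 624 in knockout spermatids against 846 and 740 in knockout spermatocytes and was called lower (log2 fold change -0.34, adjusted p = 0.0304 from limma). That sign turned under both scalings, and the call was lost when replicate 1 of the knockout spermatocytes or either knockout spermatid array was left out, with values of -0.34 to -0.24. Fbxw7, Fbxw11, Keap1 and Rbx1 were called lower in the knockout only, although for Fbxw7 the sign turned under both scalings, the calls of Fbxw11 and Keap1 were lost under both, and that of Rbx1 with the medians set equal and without replicate 1 of the knockout spermatocytes (-0.39). The difference between genotypes is tested below. Anapc13, called lower at -0.29, turned sign under both scalings and was lost without any knockout array or either wild type spermatid array, at -0.35 to -0.23.

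**Figure D3:**
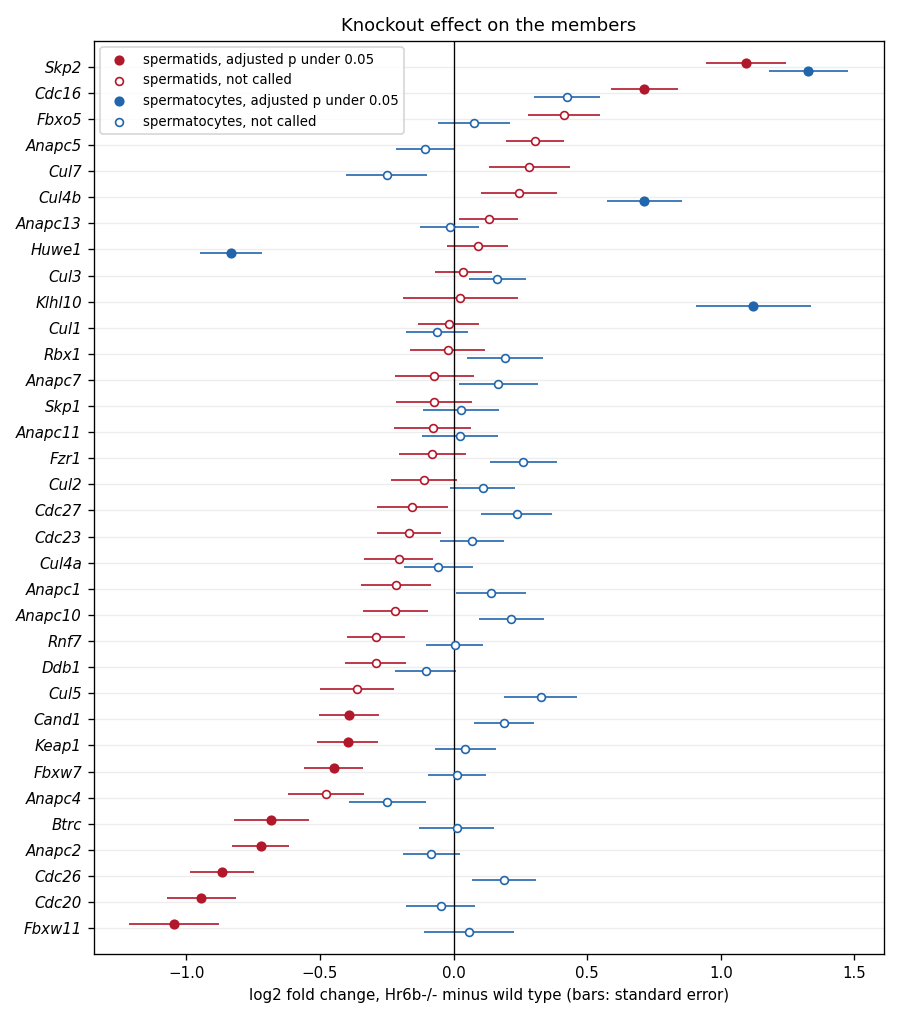
Log2 fold change between Hr6b knockout and wild type for each member in spermatids (red) and spermatocytes (blue), with standard errors; filled points were called at an adjusted p under 0.05. In spermatids 8 filled points lie left of 0 and 2 lie right of it, and in spermatocytes 3 lie right and Huwe1 lies left.

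In Hr6b knockout spermatids, 8 members were lower than in wild type spermatids and 2 were higher. Lower were the APC/C activator Cdc20, the core subunits Anapc2 and Cdc26, the F-box genes Btrc, Fbxw7 and Fbxw11, the receptor Keap1 and the exchange factor Cand1. Higher were Skp2 and the core subunit Cdc16. Over all genes 12.9% were called lower and 6.93% higher. Among genes at a signal of 100 or more on at least 4 arrays 28.4% were called in either direction, against 10 of the 32 members at that signal, so that the share of members called lay near the background. The median log2 fold change of the members was -0.13, against 0.014 for all genes and -0.14 for genes at that signal, and 24 of 34 values were negative. That lean depended on the scaling. The median was 0.066 after cyclic loess, with 21 values positive, and 0.052 with medians of expressed probe sets set equal, with 19 positive, a scaling that by itself moved the median of all probe sets to 0.21 in place of 0.021. The calls then split into 4 lower and 3 higher, and into 5 lower and 4 higher. Anapc2, Cdc20, Cdc26 and Fbxw11 were called lower, and Cdc16 and Skp2 higher, under all 3 scalings. Of 11 Sertoli cell markers 3 were called higher in knockout spermatids, with a summed signal of 1109 and 1049 in knockout spermatids against 681 and 768 in wild type spermatids. Of 15 meiotic markers 2 were called lower in knockout spermatids, with a summed signal of 26546 and 28181 in knockout spermatids against 32178 and 32220 in wild type spermatids. The 15 markers of round and later spermatids had 3 called higher and 0 lower, a median log2 fold change of 0.42, and a summed signal of 222929 and 228430 in knockout spermatids against 174015 and 177009 in wild type spermatids. Of 8 spermatogonial markers 2 were called higher, and of 5 macrophage markers 1, with 0 of either list lower. Of 4 Leydig cell and 4 peritubular markers 0 were called. The part of these cells in the results was not tested.

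Cdc20 had signals of 3693 and 4513 in knockout spermatids and of 8301 and 7435 in wild type spermatids. Both knockout arrays were below both wild type arrays, and the level was 1.92-fold lower (log2 fold change -0.94, standard error 0.13, adjusted p = 0.00161 from limma). Its other probe sets had -0.96 and -0.63 and were also called. Fzr1, the other activator, had 2592 and 2346 in knockout spermatids against 2552 and 2661 in wild type spermatids, groups that overlapped (log2 fold change -0.08, 95% interval -0.36 to 0.20). Fbxo5, the inhibitor, had 0.41 (adjusted p = 0.0724 from limma) at signals under 100, and was called with the medians set equal (0.60).

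Among the core subunits, Cdc26 had 627 and 624 in knockout spermatids and 1094 and 1188 in wild type spermatids, 1.82-fold lower (log2 fold change -0.87, standard error 0.12, adjusted p = 0.00167 from limma). Anapc2 had 308 and 319 in knockout spermatids against 523 and 511 in wild type spermatids, 1.65-fold lower (adjusted p = 0.00224 from limma). In both, the knockout arrays were well separated from the wild type arrays. The other 3 probe sets of Cdc26 were dim, and with the mean of all 4 the value was -0.21 and not called. Cdc16, whose product CDC26 stabilises, went the other way, with 1958 and 2261 in knockout spermatids and 1272 and 1294 in wild type spermatids, 1.64-fold higher (log2 fold change 0.71, standard error 0.12, adjusted p = 0.00508 from limma). Anapc4 had 156 and 193 in knockout spermatids against 239 and 244 in wild type spermatids and missed the threshold (-0.48, adjusted p = 0.0521 from limma), while its other probe set, dimmer in spermatids, was called at -0.92. The remaining 8 core subunits were not called on their brightest probe sets, with log2 fold changes between -0.22 for Anapc10 and 0.31 for Anapc5. Anapc5 was called under both other scalings, at 0.54 and 0.49. Another probe set of Cdc23 was called lower, at -0.51 (adjusted p = 0.0374 from limma), with means of 32.8 in knockout spermatids against 47.0 in wild type spermatids.

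**Figure D4:**
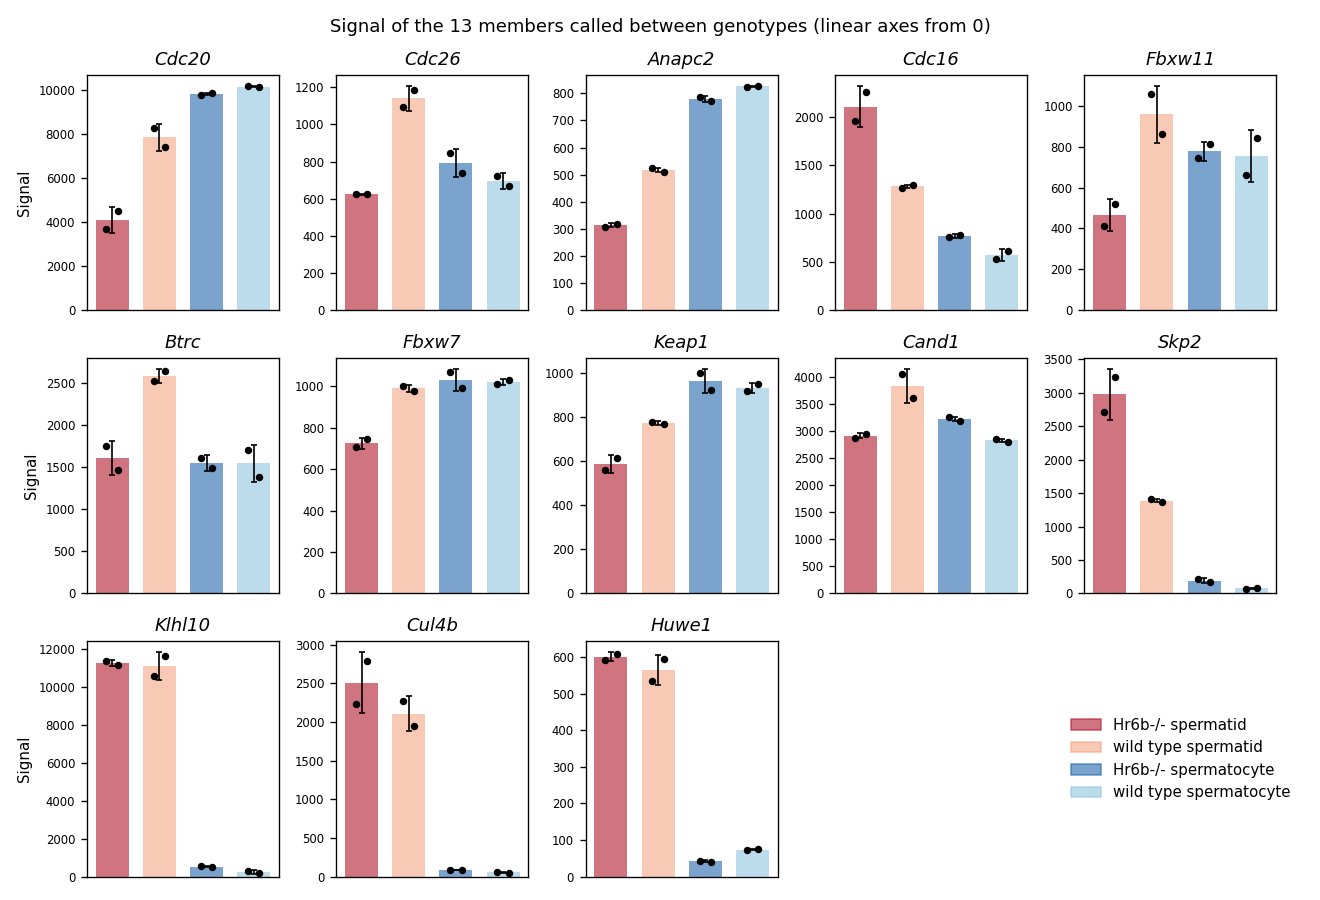
Signal of the 13 members called between the genotypes in spermatids or in spermatocytes, on linear axes from 0; bars are means of 2 arrays, error bars are SD and points are arrays. Cdc20, Cdc26, Anapc2, Fbxw11, Btrc, Fbxw7, Keap1 and Cand1 have lower bars in knockout than in wild type spermatids, and Cdc16 and Skp2 have higher ones.

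On their brightest probe sets, no cullin or RING subunit was called between the genotypes in spermatids, at log2 fold changes between -0.36 for Cul5 and 0.28 for Cul7. At an unadjusted p under 0.05 in limma, Cul5 and Rnf7 were the cullin and RING genes that differed, among 16 of the 34 members. Over all genes 6487 of 18193 differed in this way. Among those at a signal of 100 or more on at least 4 arrays, 4685 of 9989 genes and 16 of 32 members did. With the mean of both its probe sets Rnf7 was called, at -0.30. Dimmer probe sets of Cul3, described below, and of Cul2 were called lower, that of Cul2 at -0.63 (adjusted p = 0.0339 from limma), with means of 18.7 in knockout spermatids against 29.3 in wild type spermatids. The receptors held the steepest differences of both signs. Fbxw11 had 411 and 520 in knockout spermatids and 1057 and 860 in wild type spermatids, 2.06-fold lower (log2 fold change -1.05, standard error 0.17, adjusted p = 0.00344 from limma), and its other probe set with a signal over 100 had -0.84. Skp2 had 2706 and 3241 in knockout spermatids against 1407 and 1368 in wild type spermatids, 2.13-fold higher (log2 fold change 1.09, standard error 0.15, adjusted p = 0.00158 from limma). No array of the knockout overlapped with wild type in either gene. Of the other 5 probe sets of Skp2, 4 were called at 0.46 to 0.54 and 1 had 0.42 without a call.

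Btrc had 1758 and 1471 in knockout spermatids and 2525 and 2641 in wild type spermatids, 1.61-fold lower (adjusted p = 0.0107 from limma). The call was lost without replicate 2 of the knockout spermatids or either wild type spermatid array, at -0.72 to -0.55, and after cyclic loess. It was also lost with the mean of all its probe sets, at -0.28, and the other probe set with a signal over 100 had -0.28 without a call. Fbxw7 had 707 and 745 in knockout spermatids against 1002 and 979 in wild type spermatids, 1.37-fold lower (adjusted p = 0.0223 from limma), and the call was lost under both other scalings and without any of the 4 spermatid arrays, at -0.49 to -0.41. Keap1 had 560 and 616 in knockout spermatids against 779 and 768 in wild type spermatids, 1.32-fold lower (adjusted p = 0.0426 from limma). Cand1 had 2879 and 2943 in knockout spermatids against 4049 and 3605 in wild type spermatids, 1.31-fold lower (adjusted p = 0.0429 from limma). In all 4 genes the groups did not overlap, which adds little to the calls, since the genes were picked by them. The calls of Keap1 and Cand1 were the least stable and were kept under 4 of 15 alternatives each. They were lost under both other scalings, at -0.15 and -0.16 after cyclic loess, and without any spermatid array or either knockout spermatocyte array, at -0.47 to -0.33 for Keap1 and -0.48 to -0.31 for Cand1.

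In Hr6b knockout spermatocytes, 3 members were higher than in wild type spermatocytes, Skp2, Klhl10 and Cul4b, and Huwe1 was lower. Over all genes 2.22% were called higher and 0.511% lower, and 4.41% in either direction among genes at a signal of 100 or more on at least 4 arrays, a level that Cul4b and Huwe1 reached in spermatids and not in spermatocytes. At an unadjusted p under 0.05 in limma, 6 of the 34 members differed, against 2529 of 18193 genes. At that signal 6 of 32 members and 1881 of 9989 genes did. Skp2 had 215 and 169 in knockout spermatocytes and 71.7 and 80.6 in wild type spermatocytes, 2.51-fold higher (log2 fold change 1.33, standard error 0.15, adjusted p = 0.00289 from limma), a call that was kept under all 15 alternatives. Of its other 5 probe sets, 1 was called, and their values were 0.38 to 0.69. With the mean of all 6 the value was 0.68 and was called. Klhl10 had 555 and 497 in knockout spermatocytes and 319 and 183 in wild type spermatocytes, 2.18-fold higher (log2 fold change 1.12, standard error 0.22, adjusted p = 0.0329 from limma). The knockout arrays lay above the wild type arrays in both, but the wild type arrays of Klhl10 were far apart, and without replicate 2 of the wild type spermatocytes the value was 0.72. Its call was lost without any array other than replicate 1 of the wild type spermatocytes, at 0.72 to 1.20. Cul4b had 84.5 and 89.6 in knockout spermatocytes against 55.8 and 50.4 in wild type spermatocytes, all under 100 (0.71, adjusted p = 0.0379 from limma), and the call was lost without any of the 4 spermatocyte arrays or either wild type spermatid array, at 0.64 to 0.79. Huwe1 had 43.4 and 39.6 in knockout spermatocytes against 73.3 and 74.5 in wild type spermatocytes, also all under 100 (-0.83, adjusted p = 0.00674 from limma), and was lost without either knockout spermatocyte array, at -0.90 and -0.77. With the 4 spermatocyte arrays fitted alone, Skp2 was the member still called. With the mean of all probe sets of a gene, Cul4b and Huwe1 were at 0.16 and -0.19 and not called.

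Skp2, Klhl10 and Cul4b had stage differences of 4.19, 5.52 and 5.31 in wild type, a comparison that shares the wild type spermatocyte arrays. Huwe1, which was lower in knockout spermatocytes, was also higher in wild type spermatids, at 2.93. Anapc10, Cdc27 and Fzr1, with stage differences of 1.92, 1.79 and 1.66, were not called between the genotypes in spermatocytes. Spermatid markers moved with Skp2, Klhl10 and Cul4b. In knockout spermatocytes 11 of the 15 markers of round and later spermatids were called higher, with a median log2 fold change of 1.80. Of the 15, 15 and 13 had a signal of 100 or more on the knockout spermatocyte arrays, against 13 and 10 on the wild type spermatocyte arrays. Their summed signal was 35776 and 25643 in knockout spermatocytes against 9630 and 5992 in wild type spermatocytes. As a percent of the signal in knockout spermatids, the difference between knockout and wild type spermatocytes was 3.90% for Skp2, 2.44% for Klhl10 and 1.36% for Cul4b, and ranged between 1.06% and 20.4% over the 15 markers with a median of 4.31%. Spermatid RNA in the spermatocyte fraction and expression in the spermatocytes themselves cannot be told apart in these arrays. The part of either in these results was not tested.

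No other member was called between the genotypes in spermatocytes. Cdc20 had 9806 and 9866 in knockout spermatocytes against 10192 and 10149 in wild type spermatocytes (log2 fold change -0.05, 95% interval -0.33 to 0.24). Cdc16 had 755 and 782 in knockout spermatocytes against 532 and 616 in wild type spermatocytes, without overlap but not called (0.42, adjusted p = 0.174 from limma). Fbxw11, Btrc, Fbxw7 and Keap1, lower in knockout spermatids, had values of 0.06, 0.01, 0.01 and 0.04 in spermatocytes, and Cand1 had 0.19.

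The difference between the knockout effects in the stages was tested as an interaction, the effect in spermatids minus that in spermatocytes. Of the 34 members, 4 were called with a lower effect in spermatids, Anapc2, Cdc26, Cdc20 and Fbxw11, and Huwe1 with a higher one. Over all genes 4.61% were called lower and 2.11% higher, and 9.36% in either direction among genes at a signal of 100 or more on at least 4 arrays. At an unadjusted p under 0.05 in limma, 15 of the 34 members differed, against 5131 of 18193 genes. At that signal 14 of 32 members and 3675 of 9989 genes did. Fbxw11 had -1.10 (standard error 0.24, adjusted p = 0.0344 from limma), Cdc26 -1.05 (0.17, 0.0135), Cdc20 -0.90 (0.18, 0.0289), Anapc2 -0.64 (0.15, 0.0429) and Huwe1 0.92 (0.16, 0.0176). For Fbxw7, Keap1, Rbx1, Btrc and Cand1 the interaction was not called, so their effects are not shown to differ between the stages. With 2 arrays a group these calls were fragile. After cyclic loess 1 was lower (Cdc26) and 1 higher (Huwe1), and with medians set equal 2 were lower (Cdc26 and Fbxw11) and 2 higher (Huwe1 and Anapc5). Leaving out replicate 1 of the knockout spermatids or replicate 1 of the knockout spermatocytes left 0 members called. Anapc2 was lost without any of the 8 arrays, at -0.67 to -0.61, Fbxw11 without any of 6, at -1.25 to -0.93, Cdc20 without any of 5, at -0.98 to -0.75, Huwe1 without any of 4, at 0.85 to 0.99, and Cdc26 without either of these 2 knockout arrays, at -1.06 and -0.96. The arrays were both wild type spermatid arrays, both knockout spermatocyte arrays and replicate 1 of the knockout spermatids for Cdc20, these and replicate 1 of the wild type spermatocytes for Fbxw11, and both knockout spermatocyte arrays with replicate 1 of the knockout spermatids and of the wild type spermatids for Huwe1. With the mean of all probe sets, Cdc26, Fbxw11 and Huwe1 were at -0.22, -0.54 and 0.19 and not called.

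Several members had probe sets that did not give the same stage difference. Of 20 members with another probe set at a signal of 100 or more in a group, 4 had opposite calls between wild type spermatids and wild type spermatocytes, Cdc27, Cul5, Btrc and Cand1. Between the genotypes there were 0 opposite calls in spermatids and 0 in spermatocytes. An opposite call needs a call on the brightest probe set, so uncalled members could not give one. Among the members called in spermatocytes, Skp2 alone had another probe set at that signal, and the 0 there rests on that gene. Among those called in spermatids, Anapc2 and Cdc26 had no such probe set. Cand1 had 0.44 on its brightest probe set and -2.19, -3.80 and -2.40 on the others. Cul5 had 1.10 and 0.88 on 2 probe sets and -1.97 on the third, Cdc27 had 1.79, 1.19, 0.27 and -0.53, and Btrc had 0.75 and -0.34. In the knockout, Cdc27 had 1.40, 0.66, -0.45 and -1.14, all called, and 0.12 without a call as their mean, and Cul5 had 0.41 and 0.30 on 2 probe sets and -2.48 on the third. Skp2 was called higher in wild type spermatids on all 6 probe sets, at 4.19 on the brightest and at 0.39 to 0.93 on the others.

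Cul3 depended on the probe set in both comparisons. Its brightest probe set had -0.08 between wild type spermatids and wild type spermatocytes, and the other 4 had -1.67 to -3.13 and were called. On 3 of these the signal was also lower in knockout than in wild type spermatids, at -0.89, -0.85 and -0.89 (adjusted p = 0.00202, 0.0111 and 0.0158 from limma), with means of 86.6, 60.8 and 52.1 in knockout spermatids against 161, 111 and 94.5 in wild type spermatids, while the brightest had 0.04. Skp1 had -0.07 on its brightest probe set between knockout and wild type spermatids and -0.73 on the other (adjusted p = 0.014 from limma), which had 830 and 1364 as the means in knockout and wild type spermatids. Where the probe sets lie on the transcripts is not given in the files, and no isoform was assigned.

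**Figure D5:**
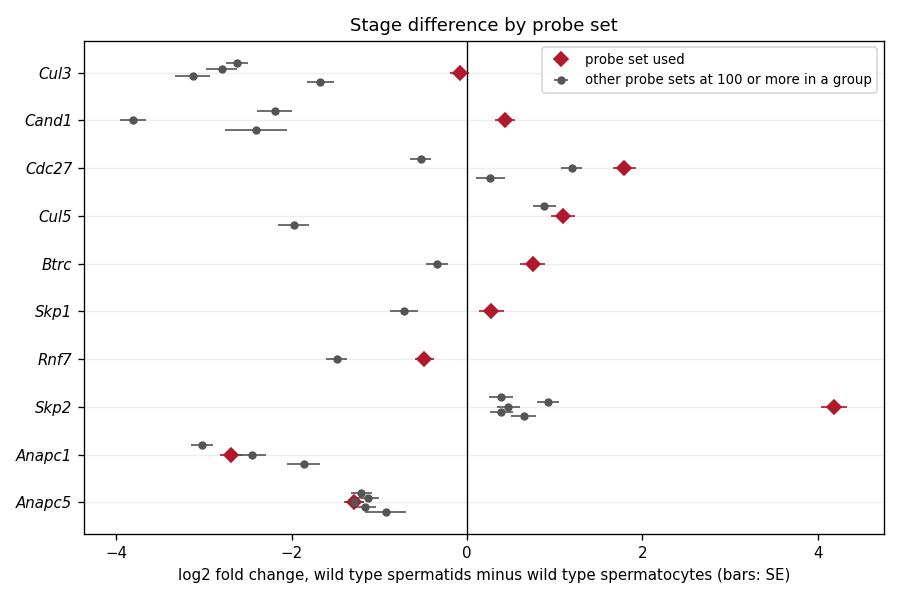
Log2 fold change between wild type spermatids and wild type spermatocytes for each probe set with a signal of 100 or more in a group, for 10 members, with standard errors; red diamonds are the probe sets used in the text. For Cul3 and Cand1 the other probe sets lie between -1.67 and -3.80, far left of the diamond, while those of Anapc1 and Anapc5 lie near it.

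The partners of these ligases were counted from lists of other genes of the pathway. The counts stand beside 12.9% called lower and 6.93% higher over all genes in knockout against wild type spermatids, and 29.4% lower and 33.7% higher in wild type spermatids against wild type spermatocytes, and they depended on the scaling, an alternative added for these lists after the data were seen. Of 14 spindle checkpoint genes and APC/C partners, 5 were called lower in knockout than in wild type spermatids and 0 higher, and their median was -0.09. After cyclic loess 1 was lower, and with the medians set equal 3 were lower, with 0 higher in both. Bub1b, a kinase-like checkpoint gene, averaged 934 ± 22.4 in knockout spermatids and 1870 ± 59.8 in wild type spermatids (SD, n = 2 each), a log2 fold change of -1.002, and Bub1 and Bub3 had -0.68 and -0.60. Of 14 measured genes of APC/C substrates, 3 were called lower and 0 higher, Cdc6 (-0.87), Tpx2 (-0.67) and Nek2 (-0.56), with a median of -0.35, and under either other scaling 2 were lower and 0 higher. Between the stages in wild type, Mad2l1, the checkpoint gene that holds CDC20 inactive, fell by 3.38 in spermatids, and among the substrates Gmnn, an inhibitor of replication licensing, fell by 3.01 while the mitotic kinase gene Plk1 had 2.80 and the germ cell cyclin gene Ccna1 2.49.

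A list of 21 measured genes held the machinery that attaches and removes NEDD8, together with Cand2 and Glmn. Of these 21, 12 were called lower in wild type spermatids than in wild type spermatocytes and 4 higher. The counts were 11 and 7 after cyclic loess and 11 and 8 with the medians set equal. Uba3 and Nae1, which encode the subunits of the NEDD8-activating enzyme, fell by 3.91 and 2.63, while Dcun1d1, which promotes cullin neddylation, had 3.65. In knockout against wild type spermatids 7 were called lower and 2 higher, among them Glmn, whose product binds RBX1, at -0.69, and Cand2, a paralog of Cand1, at -0.65. Under the other scalings 3 were lower, with 1 higher after cyclic loess and 2 with the medians set equal. In knockout against wild type spermatocytes 1 of the 21 was called, Dcun1d1 at 0.76, where 2.22% of all genes were called higher and 0.511% lower. Its mean was 926 in knockout spermatocytes against 545 in wild type spermatocytes, beside the spermatid markers given above.

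Of the other substrate receptors and adaptors, 65 genes chosen by F-box symbols held 6 called higher and 8 lower in knockout than in wild type spermatids, 43 BTB genes of CUL3 ligases 2 and 8, 40 adaptors of CUL2 and CUL5 3 and 4, and 25 CUL4 receptors 0 and 7. Their medians were 0.011, -0.10, 0.076 and -0.27. The F-box count includes Fbxl12os, a transcript of the opposite strand, and Fbxo43, which is also counted among the APC/C partners. After cyclic loess the F-box genes had 7 higher and 3 lower, the BTB genes 3 and 5, the adaptors of CUL2 and CUL5 7 and 2, and the CUL4 receptors 2 and 0. With the medians set equal these counts were 14 and 3, 5 and 5, 8 and 2, and 2 and 2. Klhl11 had a mean of 528 in knockout spermatids against 1191 in wild type spermatids (log2 fold change -1.18), and Fbxo11 had 191 in knockout spermatids against 92.4 in wild type spermatids (1.05). Between the stages, Kbtbd6 fell by 5.63 in wild type spermatids and Fbxo3 by 4.84, whereas the SOCS-box genes Asb15, Asb17 and Asb9 had 5.91, 5.80 and 5.46. In knockout spermatocytes Asb17 and Asb9 were also higher than in wild type spermatocytes, at 1.83 and 1.26, beside the spermatid markers given above. Of 23 measured HECT ligase genes other than Huwe1, 2 were called higher and 7 lower in knockout spermatids, with Wwp2 at a mean of 2524 in knockout spermatids against 1125 in wild type spermatids (1.17). The HECT counts were 3 higher and 2 lower after cyclic loess, and 5 and 2 with the medians set equal.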

How the data were processed

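Normalised intensities of 8 Affymetrix arrays were used. The authors computed them from the scanner files by RMA, which corrects background, normalises across arrays and summarises each probe set, and deposited them on the log2 scale. The version of that software is not given in the sources used here, and the number of arrays limits the precision. Nothing was normalised further. A group-means model was fitted to all 8 arrays with limma 3.58.1 in R 4.3.3 (4 residual and 5.85 prior degrees of freedom), and p-values were adjusted by Benjamini-Hochberg over 45037 probe sets, leaving out 64 controls. Of these, 34945 were annotated to 1 gene, 932 to several and 9160 to none. All 34 members are named. Array values are given for those called between genotypes or in the interaction, the 8 with the steepest stage difference in wild type, and Cdc20, Fzr1, Cul3, Klhl10, Cul4a and Cul4b, and up to 3 called genes of each other list and comparison are named. Probe sets annotated to Rbx1 and other genes were not used. The members and lists were chosen with earlier results of these data known. Alternatives were the replicate number as a block, 2 scalings, a signal filter, an intensity trend, the mean of a gene's probe sets, 4 arrays alone and each array left out. An exact two-sided permutation of 2 arrays against 2 has 0.333 as its smallest p, so none is given. For the same reason groups of 2 that do not overlap are weak evidence, and such genes were not counted over the whole array. Promoter windows are from RefSeq, GRCm38.p6.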

Additional observations from a re-analysis of the deposited data

Results flagged for a closer look

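The interaction test, the knockout effect in spermatids minus that in spermatocytes, called 5 members at an adjusted p under 0.05 from limma. In the pathway lists it called 3 of 14 checkpoint genes and APC/C partners and 2 of 14 substrates. Of the 21 genes of the NEDD8 list it called 2, Glmn and Cand2. It also called 6 of 65 F-box genes, 5 of 43 BTB genes and 3 of 23 HECT ligase genes. Of 40 adaptors of CUL2 and CUL5 and 25 CUL4 receptors it called 0. Over all genes 4.61% were called lower and 2.11% higher, and 9.36% in either direction among genes at a signal of 100 or more on at least 4 arrays. Under either other scaling 1 gene of the checkpoint and partner list, 1 substrate and 1 gene of the NEDD8 list were called. The F-box genes then had 4 higher after cyclic loess and 8 with the medians set equal, with 0 lower in both. Values are given for up to 3 genes of a list. Groups of 2 arrays were too small for a test of outlying samples.

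Of the members, Anapc2 had -0.64, Cdc26 -1.05, Cdc20 -0.90, Fbxw11 -1.10 and Huwe1 0.92 on the log2 scale. In the first 4 the effect lay in spermatids, at -0.72, -0.87, -0.94 and -1.05, with values of -0.08, 0.19, -0.05 and 0.06 in spermatocytes, whereas Huwe1 had 0.09 in spermatids and -0.83 in spermatocytes.

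Of the checkpoint genes, Bub1b had -0.97, Mad2l1bp -0.80 and Bub1 -0.78, and of the substrates Cdc6 had -1.08 and Tpx2 -0.72. Glmn and Cand2 had -1.004 and -0.76. The F-box genes Fbxo44, Fbxo11 and Fbxo15 had 1.03, 0.87 and -0.84, and the BTB genes Klhl11, Kbtbd2 and Klhl21 had -1.26, -1.06 and -1.04. The HECT ligase genes Wwp2, Hectd2 and Ube3a had 1.28, -0.95 and -0.88.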

How the results depend on the processing

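Over the members and 5 comparisons, 2506 values were recomputed. Of these, 2307 kept their side of the threshold without turning a call (among them 95 uncalled values changed sign), 132 lost the call, 48 gained it and 19 were on the other side of 0 with a call in one or both fits. With the mean of all probe sets of a gene, Cul3 was at -0.53 between knockout and wild type spermatids. In wild type spermatids against spermatocytes Btrc was at -0.10 and Cand1 at -1.99, and in the knockout Cul5 was at -0.59, Skp1 at -0.61 and Btrc at -0.50. After cyclic loess, Fbxw7 was at 0.34 in wild type, and in the knockout Anapc13 was at 0.26, Cdc26 at 0.33, Cul1 at 0.0028, Fbxw7 at 0.14 and Cand1 at 0.37. With expressed medians set equal, Fbxw7 was at 0.27 in wild type, and in the knockout Anapc13 was at 0.24, Cdc26 at 0.20, Cul3 at 0.32, Cul7 at 0.50, Fbxw7 at 0.029 and Cand1 at 0.39. The cause was not tested.

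In knockout against wild type spermatids 6514 probe sets were called, 3737 genes with the mean of probe sets, and 2588 to 7268 (6 to 12 members) without 1 array. In spermatocytes the count was 717, 80 with 4 arrays alone (1 member) and 119 to 999 (1 to 3 members) without 1 array, and 2 members were called with the mean of probe sets. Between stages, with the signal filter and with the mean of probe sets, the counts were 15303 and 13597 in the knockout (23546 to 28724 without 1 array, 26 to 29 members) and 14898 and 11852 in wild type (20719 to 23979, 26 to 28 members). Those settings test fewer features. For the interaction 1197 probe sets (2 members) were called after cyclic loess, 3241 (8 members) with an intensity trend, 8 members with the filter, and 228 to 2197 probe sets (0 to 5 members) without 1 array.

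The replicate numbers did not pair the arrays, since deviations of same-numbered arrays correlated at -0.13 to 0.14. With the number as a block, 9, 3, 28, 28 and 4 members were called in spermatids, in spermatocytes, between stages in wild type and in the knockout, and in the interaction. Huwe1 and Cul4b in spermatocytes were dim, with signals under 100.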
